A study of Mus musculus with 6 samples.

Results

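The genes described here are 5 cadherins, the epithelial adhesion molecule Epcam, the repressors Snai1, Zeb1 and Zeb2, and fibronectin (Fn1). They were chosen by name as genes of the switch between an epithelial and a mesenchymal cell state, with earlier results of these data known. All 10 were found among the 23235 rows of the deposited RNA-seq table. RNA had been taken from E14Tg2a, a mouse embryonic stem cell line, at passages 37 to 40. The ESC group was 3 samples of pluripotent cells kept in Leukemia Inhibitory Factor (LIF), and the NC group was 3 samples of the same line grown as LIF-free monolayers in 1 µM Retinoic Acid (RA) for 2 days (48 h), a treatment meant to give neuronal cells. LIF was thus removed and RA added together, so the effects of the withdrawal and of RA cannot be told apart. The table gives 1 value per gene and condition in FPKM (fragments counted for a gene, corrected for transcript length and library size), pooled over the 3 samples of that condition. It carries no value of a single sample, so no SD can be given, no difference was checked against the spread between replicates, and no test was run. Every comparison below is a ratio of those FPKM values, NCs over ESCs.

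Cadherins are transmembrane proteins that join like cells through calcium-dependent binding of their outer domains, while their tails hold catenins and, through these, the actin cytoskeleton. Epithelial cells, among them pluripotent ESC colonies, rely on E-cadherin (Cdh1), and the neural plate is known to exchange E-cadherin for N-cadherin (Cdh2) as it forms the neural tube. In the epithelial to mesenchymal transition the zinc finger repressors Snai1, Zeb1 and Zeb2 bind E-box sequences in the promoters of epithelial genes, and cells take up mesenchymal cadherins and fibronectin. The comparison of ESCs with NCs asked how these genes stood before and after the exit from pluripotency.

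All 10 genes differed by more than 2-fold between the conditions, 6 of them higher and 4 lower in NCs. The higher genes were Cdh2, Cdh6, Cdh11, Snai1, Zeb1 and Zeb2, and the lower genes were Cdh1, Cdh3, Epcam and Fn1. Among the 13290 genes that reached 1 FPKM in either condition, the genes compared throughout, 12.5% were at least 2-fold higher and 10.6% at least 2-fold lower in NCs. These shares are no test, since the 10 genes were chosen with earlier results of these data known. A gene under 1 FPKM in ESCs passes this filter only through a higher NC level, as Cdh6, Cdh11 and Zeb2 did. Such genes can add only to the higher counts, here and in the lists below. Fn1, which encodes a matrix protein that mesenchymal cells secrete, was in the lower group together with the epithelial genes Cdh1, Cdh3 and Epcam. The limit of 2-fold was the size of change that the study itself had used.

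**Figure D1:**
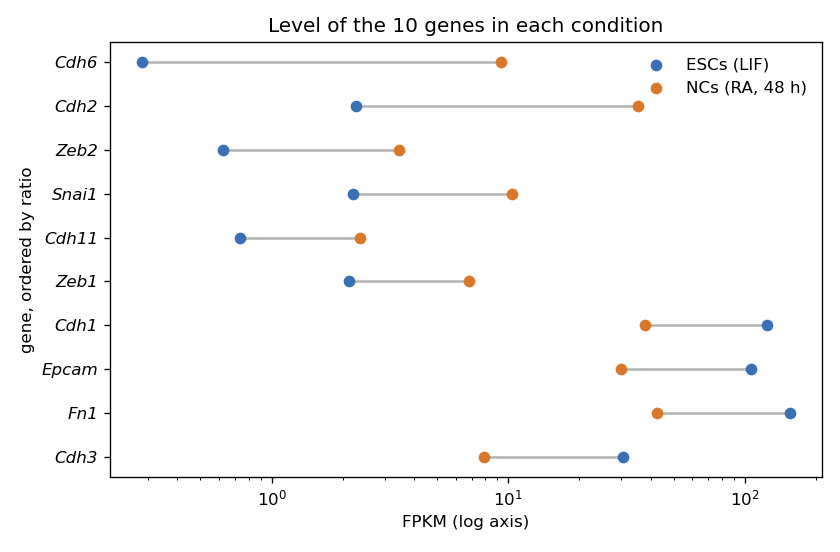
FPKM of each of the 10 genes (log axis, 1 point per condition, no error available), ordered by the ratio of NCs over ESCs. Cdh6 spans the widest range, from 0.284 FPKM under LIF to 9.35 FPKM under RA, and Cdh1, Epcam, Fn1 and Cdh3 lie further left in NCs than in ESCs.

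Cdh1, the E-cadherin gene (Ensembl ENSMUSG00000000303, chromosome 8, 106603351 to 106670246 on the plus strand of GRCm38), had 124 FPKM under LIF and 38.0 FPKM under RA. Its level was 3.26-fold lower in NCs, a log2 ratio of -1.70. Cdh1 remained well expressed after 48 h of RA, above 81.9% of the compared genes in NCs against 94.4% in ESCs. Cdh3, the P-cadherin gene (chromosome 8, 106510891 to 106557297), lies upstream of Cdh1 on the same strand, with 46053 bases between them. That stretch is overlapped by 2 other annotated genes, 1 of them protein coding. Cdh3 had 30.4 FPKM under LIF and 7.92 FPKM under RA and was 3.84-fold lower, with a log2 ratio of -1.94. Cdh1 stood at 4.07 times the Cdh3 level in ESCs and at 4.80 times in NCs. Epcam (chromosome 17, 87635979 to 87651129), an adhesion molecule of simple epithelia and ESCs that is not a cadherin, had 106 FPKM under LIF and 29.8 FPKM under RA. This was a 3.55-fold lower level in NCs, a log2 ratio of -1.83, and the ratio of Epcam to Cdh1 was 0.856 in ESCs and 0.785 in NCs. Of the compared genes, 4.72% had a lower ratio than Cdh1, 4.22% a lower ratio than Epcam and 3.81% a lower ratio than Cdh3.

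Cdh2, the N-cadherin gene of neural and mesenchymal cells (chromosome 18, 16588877 to 16809246), had 2.28 FPKM under LIF and 35.5 FPKM under RA. It was 15.6-fold higher in NCs, a log2 ratio of 3.96 that 1.66% of the compared genes exceeded. Cdh6 (chromosome 15, 13028701 to 13173675) encodes a type II cadherin known from the kidney, the neural tube and the neural crest. Its level was 0.284 FPKM under LIF and 9.35 FPKM under RA, which is 32.9-fold higher and the largest ratio of the 10 genes, with 1.01% of the compared genes above it. With 1 FPKM added to both values the log2 ratio of Cdh6 was 3.01 in place of 5.04. Cdh11 (chromosome 8, 102632095 to 102785642), a type II cadherin of mesenchyme and bone-forming cells, went from 0.733 FPKM under LIF to 2.37 FPKM under RA. Cdh11 was 3.24-fold higher but had the lowest level of the 10 genes in NCs, and with 1 FPKM added to both values its log2 ratio was 0.96, short of the 2-fold limit.

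The conditions differed in the proportions of the cadherins, while the sum of the cadherins lay within the 2-fold limit. Summed over Cdh1, Cdh2, Cdh3, Cdh6 and Cdh11, cadherin FPKM was 157 in ESCs and 93.1 in NCs, a 1.69-fold lower level. The size of that difference depends on how the conditions were scaled to each other. Cdh1 supplied 78.6% of this sum in ESCs and 40.8% in NCs. Cdh2 supplied 1.45% in ESCs and 38.1% in NCs, close to the share of Cdh1. The share of Cdh3 was 19.3% in ESCs and 8.50% in NCs, while that of Cdh6 was 0.180% and 10.04%. Cdh11 made up 0.466% of the sum in ESCs and 2.55% in NCs. Within ESCs the level of Cdh1 was 54.3 times that of Cdh2, and within NCs it was 1.07 times. A ratio of 2 genes within a condition does not depend on how the conditions were scaled to each other. Whether Cdh1 and Cdh2 differed in NCs beyond the spread between samples cannot be said from pooled values. In these bulk cultures, NCs in which every cell carried both cadherins and NCs that mixed Cdh1-positive with Cdh2-positive cells would give the same values, and fewer cells of a type cannot be told apart from less RNA per cell.

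**Figure D2:**
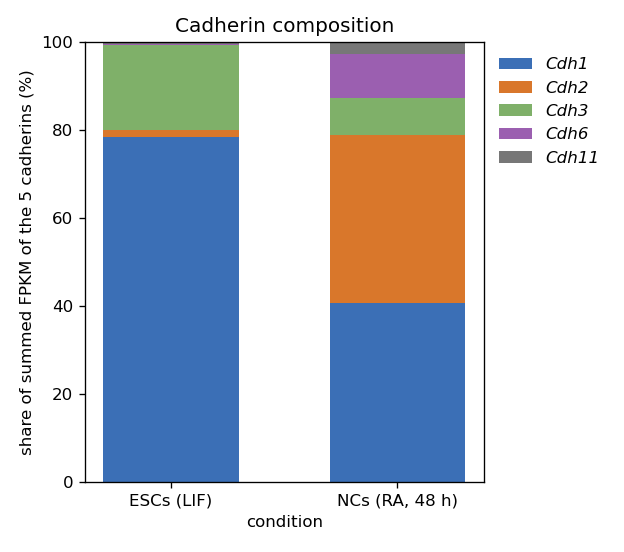
Share (%) of each of 5 cadherins in their summed FPKM, with 1 stacked bar per condition and no error available. Cdh1 takes 78.6% of the ESC bar and 40.8% of the NC bar, where Cdh2 takes 38.1% and Cdh6 10.04%.

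The other cadherins of the family were scarce. Of 18 further Cdh genes, 17 stayed under 1 FPKM in both conditions, and the 5 genes above held 95.8% of the FPKM of all 23 cadherins in ESCs and 90.1% in NCs. Cdh24 was the gene that passed, with 2.55 FPKM under LIF and 5.67 FPKM under RA, a log2 ratio of 1.15 that became 0.91 with 1 FPKM added to both values. Desmosomal cadherins and their plaque proteins, which tie cells to intermediate filaments, lay on both sides of the limit. Of 15 listed genes 7 reached 1 FPKM, with 2 at least 2-fold higher, 1 at least 2-fold lower and a median log2 ratio of -0.44, against -0.03 over all compared genes. Jup, which encodes plakoglobin and serves both desmosomes and adherens junctions, had 37.4 FPKM under LIF and 10.1 FPKM under RA, a log2 ratio of -1.89. The desmosomal cadherin Dsc2 was higher in NCs, at 6.28 FPKM under RA against 1.65 FPKM under LIF, and desmoplakin (Dsp) stood at 15.3 FPKM against 5.92 FPKM. Dsg2, the other desmosomal cadherin with a clear level, was within the limit at 7.94 FPKM under LIF and 5.30 FPKM under RA.

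The abundant catenin genes Ctnnb1, Ctnna1 and Ctnnd1 lay within 2-fold, while the neural catenin genes Ctnna2 and Ctnnd2 were higher in NCs and Jup, given above, was lower. Beta-catenin (Ctnnb1), which links cadherins to alpha-catenin, had 306 FPKM under LIF and 359 FPKM under RA. Alpha-catenin (Ctnna1) had 164 FPKM and 124 FPKM, and p120-catenin (Ctnnd1) 43.9 FPKM and 43.1 FPKM. The direction of Ctnnd1 turned with centring on the median of the 11715 genes at 1 FPKM or more in both conditions, or with a common sum. Ctnnb1, Ctnna1 and Ctnnd1 were picked out after their values were seen. Of 18 genes for catenins and adherens junction partners 17 were compared, and 13 of them lay within 2-fold, with a median log2 ratio of -0.02. The neural alpha-catenin Ctnna2 was higher in NCs, from 0.20 FPKM to 1.28 FPKM, as was the neural delta-catenin Ctnnd2, from 0.531 FPKM to 1.34 FPKM. Adam10, a protease that sheds the outer part of E- and N-cadherin, had 10.1 FPKM under LIF and 21.0 FPKM under RA, and Pvrl4, which encodes nectin-4, had 1.62 FPKM and 0.684 FPKM. With 1 FPKM added to both values, none of the 17 genes passed the limit. Adam10 was also chosen after its value was seen.

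The repressors of the switch were all at low levels in ESCs and higher in NCs. Snai1 (chromosome 2, 167538195 to 167542814), a zinc finger repressor that acts on Cdh1, had 2.20 FPKM under LIF and 10.4 FPKM under RA. It was 4.71-fold higher in NCs, a log2 ratio of 2.23. Zeb2 (chromosome 2, 44983632 to 45117395), a zinc finger homeodomain repressor with roles in the neural crest and in neural precursors, had 0.621 FPKM and 3.45 FPKM and was 5.56-fold higher, with a log2 ratio of 2.47 that became 1.46 with 1 FPKM added to both values. Its relative Zeb1 (chromosome 18, 5591860 to 5775467) had 2.12 FPKM under LIF and 6.81 FPKM under RA, a 3.22-fold higher level. Zeb1 was the more abundant of the pair in both conditions, at 3.41 times the Zeb2 level in ESCs and 1.97 times in NCs. In NCs the level of Snai1 exceeded that of Zeb1, at a ratio of 1.52, whereas both were about equal in ESCs, at a ratio of 1.04. Zeb2 overlaps the antisense gene Zeb2os, and whether strand was used is not given in the sources used here, so reads of the pair cannot be told apart. Antisense genes also overlap Zeb1, Cdh2 and Fn1.

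Of the other transcription factors that drive epithelial to mesenchymal transitions, those that passed the filter were higher in NCs more often than lower. Of 12 listed genes 10 were compared, 5 were at least 2-fold higher and 2 at least 2-fold lower, with a median log2 ratio of 1.37. Of the higher genes, Foxc1, Foxc2, Snai2 and Twist2 were under 1 FPKM in ESCs and passed the filter only through NCs, where they are high. The count of higher genes thus rests largely on the filter. With 1 FPKM added to both values, 4 were higher and 1 lower, and the median was 0.83. The forkhead genes Foxc2 and Foxc1, which act in mesenchyme, had the largest ratios, from 0.189 FPKM to 3.16 FPKM and from 0.291 FPKM to 2.59 FPKM. Twist1, a basic helix-loop-helix factor of mesenchyme, had 1.76 FPKM under LIF and 14.4 FPKM under RA, and Snai2, the relative of Snai1 known from the neural crest, had 0.499 FPKM and 3.08 FPKM. Twist1, Twist2 and Snai2 were chosen after their values were seen. Klf8 was lower in NCs, with 4.30 FPKM under LIF and 1.52 FPKM under RA. Snai3, the third Snail gene, was also lower, with 4.63 FPKM and 2.25 FPKM, and it was within the limit with 1 FPKM added to both values, with ratios centred on the median of the genes at 1 FPKM or more in both conditions, or with a common sum. Snai1 and Snai2 were thus higher in NCs and Snai3 lower. Whether Snai3 was past the limit depended on these settings.

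Snai and Zeb proteins are known to bind the E-box word CACCTG, which reads CAGGTG on the other strand. This word was looked for in the 250 bases before the annotated start of each gene (RefSeq, GRCm38.p6), where 17.2% of 32851 such windows hold it in either orientation and 2.06% hold it at least 2 times. Windows of 4 of the 10 genes were matched by symbol, those of Cdh6, Epcam, Snai1 and Zeb2. The window of Epcam, which was lower in NCs, held the word 2 times, 187 and 19 bases before the start, and the window of Snai1, which was higher, held it 1 time, 126 bases before the start. Neither the window of Cdh6 nor any of the 4 windows of Zeb2 held it. The Epcam and Snai1 windows are shown 5′ to 3′ because they carry the word, with each match in capitals. They cover chr17:87635729-87635978 and chr2:167537945-167538194, both on the plus strand. A match is a stretch of letters, and no binding was measured.
Epcam: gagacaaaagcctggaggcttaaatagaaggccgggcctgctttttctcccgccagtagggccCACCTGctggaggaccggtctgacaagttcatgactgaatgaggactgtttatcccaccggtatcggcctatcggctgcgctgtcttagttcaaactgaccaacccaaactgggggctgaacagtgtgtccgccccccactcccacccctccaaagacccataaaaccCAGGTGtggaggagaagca
Snai1: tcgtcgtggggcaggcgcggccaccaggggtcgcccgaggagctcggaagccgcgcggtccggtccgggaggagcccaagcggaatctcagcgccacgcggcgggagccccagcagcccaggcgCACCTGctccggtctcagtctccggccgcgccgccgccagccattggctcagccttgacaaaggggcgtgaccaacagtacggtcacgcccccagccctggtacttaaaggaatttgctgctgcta

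Fn1 (chromosome 1, 71585520 to 71653200) encodes fibronectin, a matrix glycoprotein that integrins bind. It had the highest level of the 10 genes in both conditions, 155 FPKM under LIF and 42.5 FPKM under RA. Fn1 was 3.64-fold lower in NCs, a log2 ratio of -1.86, close to those of Epcam and Cdh3. Its proportion to Cdh1 was 1.25 in ESCs and 1.12 in NCs. The subunits of the main fibronectin receptor were within 2-fold, with 12.8 FPKM under LIF and 16.2 FPKM under RA for Itga5 and 64.1 FPKM and 78.8 FPKM for Itgb1, both chosen after their values were seen. Of 20 further mesenchymal genes 16 were compared, 6 were at least 2-fold higher in NCs, with a median log2 ratio of 0.62. The collagen genes Col3a1 and Col1a2 had the largest ratios, from 0.514 FPKM to 3.67 FPKM and from 3.47 FPKM to 23.3 FPKM. Vimentin (Vim), the intermediate filament of mesenchymal and neural precursor cells and chosen after its value was seen, had 76.7 FPKM under LIF and 192 FPKM under RA.

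The epithelial genes were lower in NCs more often than higher. Of 32 listed genes besides Cdh1, Cdh3 and Epcam, 31 were compared, 15 were at least 2-fold lower, 3 at least 2-fold higher and 13 within the limit, with a median log2 ratio of -0.79. Rab25, a GTPase of epithelial membrane recycling, had 10.2 FPKM under LIF and 0.582 FPKM under RA, and Grhl3, a Grainyhead factor of surface epithelia, had 8.65 FPKM and 0.649 FPKM. The epithelial splicing regulator Esrp1 was also lower, from 22.8 FPKM to 4.42 FPKM, and the tight junction genes Cldn4 and Cldn7 went from 114 to 24.5 FPKM and from 42.3 to 8.45 FPKM. The scaffold gene Tjp1 was within the limit, with 31.0 FPKM under LIF and 34.7 FPKM under RA. Esrp1, Cldn4, Cldn7, Tjp1 and Krt8 were chosen after their values were seen. The 3 genes that were higher were Cd24a, from 42.2 FPKM to 170.1 FPKM, Krt18, from 45.7 FPKM to 103 FPKM, and Krt8, from 30.5 FPKM to 64.2 FPKM. Cd24a encodes a surface glycoprotein that neural precursors also carry, and Krt8 and Krt18 encode the keratin pair of simple epithelia. With FPKM rescaled to a common sum, 13 of the 31 genes were at least 2-fold lower, 3 were higher, and Esrp2, Inadl, Ocln and Prss8, named here for that turn, went from lower to higher.

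TGF-beta signaling is a classical inducer of Snai and Zeb genes. Of its 12 listed genes, all compared, 7 were at least 2-fold higher and 1 at least 2-fold lower in NCs, with a median log2 ratio of 1.09. With 1 FPKM added to both values 4 were higher, and with FPKM rescaled to a common sum none was past the limit on the lower side. The ligand gene Tgfb3 had 0.363 FPKM under LIF and 3.24 FPKM under RA, and the co-receptor gene Tgfbr3 had 0.611 FPKM and 2.06 FPKM. Both passed the filter only through NCs, as did some of the other higher genes of this list. Skil, which encodes a repressor of Smad activity, had 36.5 FPKM under LIF and 16.1 FPKM under RA. The inhibitory Smad gene Smad7 was within the limit at 7.0 FPKM and 3.97 FPKM.

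**Figure D3:**
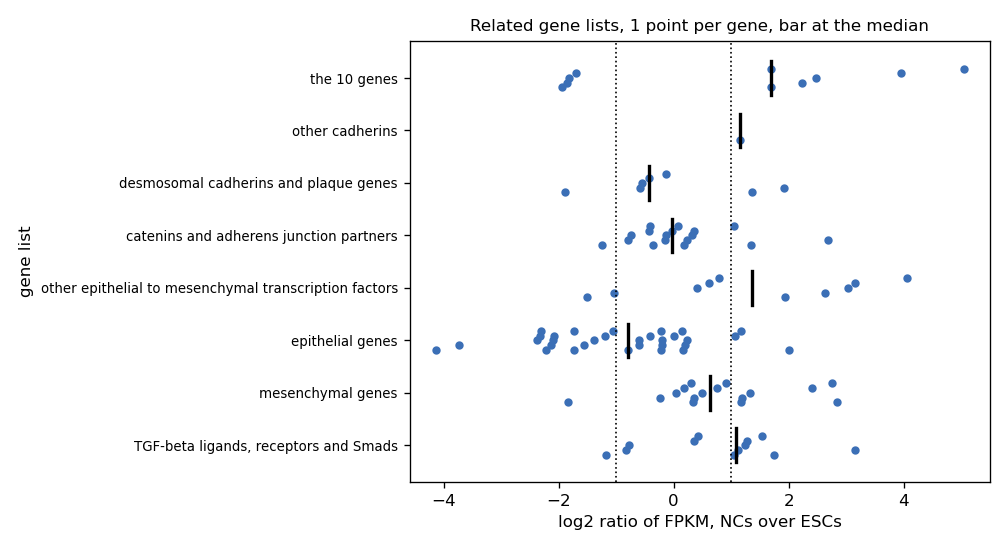
Log2 ratio of FPKM, NCs over ESCs, for each gene at 1 FPKM or more in either condition, by list, with a bar at the median and dotted lines at 2-fold. The epithelial list centres at -0.79 and the other transcription factors at 1.37, while the catenins centre at -0.02.

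Markers of the cell types that such cultures could hold were read alongside. Of 8 pluripotency markers 7 were at least 2-fold lower in NCs, with a summed level of 5392 FPKM under LIF and 939 FPKM under RA. Dppa5a supplied most of both sums, with 3612 FPKM under LIF and 780 FPKM under RA. Pou5f1 kept 37.1 FPKM in NCs. Of 7 neural progenitor markers 5 were compared and 3 were at least 2-fold higher, with a summed level of 23.8 FPKM under LIF and 113 FPKM under RA, and Pax6 reached 65.2 FPKM. Primitive or visceral endoderm markers summed to 22.4 FPKM and 47.2 FPKM, and 6 of 8 compared were at least 2-fold higher (3 with 1 FPKM added to both values), led by Foxa2 at 0.617 FPKM and 5.24 FPKM. The late endoderm markers Afp, Ttr and Apoa1 stayed under 1 FPKM in both conditions. Neural crest markers summed to 9.38 FPKM and 11.4 FPKM, with 3 of 6 higher, each under 1 FPKM in ESCs. Foxd3 was lower, at 4.70 FPKM and 0.334 FPKM, so the sum hides changes in both directions. Fibroblast markers summed to 13.7 FPKM under LIF and 13.4 FPKM under RA, with 3 of 5 compared higher and Lum listed at 0 in ESCs. Thy1 was lower, at 9.64 FPKM and 1.80 FPKM, and supplied most of the ESC sum. Of 7 mesoderm markers 2 were compared, Pdgfra stood at 0.983 FPKM and 2.82 FPKM, and T and Mesp1 were under 1 FPKM in both conditions. Dppa5a, Afp, Ttr, Apoa1, Lum, T and Mesp1 were named after their values were seen. The part of each cell type in the levels of the cadherins and repressors was not tested.

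Against all compared genes, at most 6.36% had a ratio above that of any of the 6 higher genes, and at most 4.72% had a ratio below that of any of the 4 lower genes. At a limit of 4-fold, Cdh2, Cdh6, Snai1 and Zeb2 were past it, beside 5.1% of all compared genes. None of the 4 lower genes was, beside 3.67% of all compared genes. With 1 FPKM added to both values, the log2 ratios of Snai1 (1.83) and Zeb2 (1.46) fell short of 4-fold. Those of Cdh2 (3.48) and Cdh6 (3.01) did not. The ratios of the lower genes lay close together, from -1.94 to -1.70, while those of the higher genes ran from 1.69 to 5.04. The genes whose pair of levels was most like that of Cdh1, by the distance on log2(FPKM + 1) over the 2 conditions, were Pim3, Prps1 and Ass1, at distances of 0.12 to 0.19. Most like Cdh2 were Usp17le, Gm12794 and Zscan4c, at distances of 0.01 to 0.19. The Zscan4 and Usp17 families hold near-identical copies, so reads could be split among them. Only 2 values describe each gene, so likeness here means no more than a similar level and ratio.

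**Figure D4:**
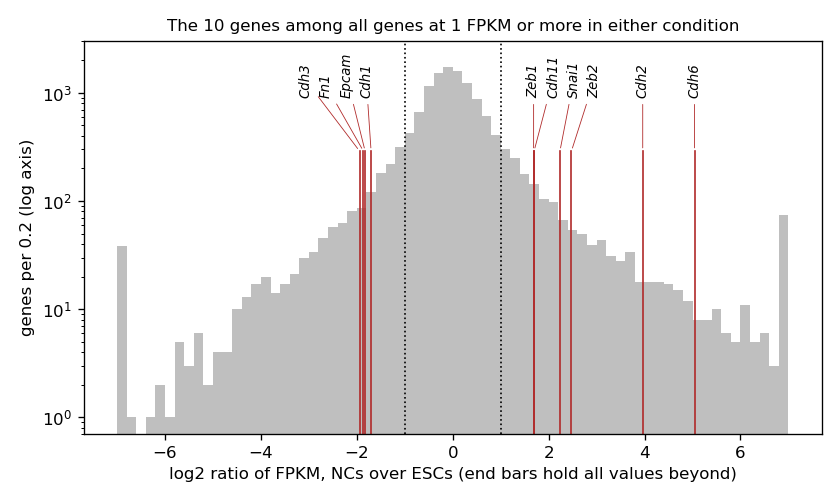
Number of genes (log axis) by log2 ratio of FPKM, NCs over ESCs, among 13290 genes, with the 10 genes marked in red, dotted lines at 2-fold, and values beyond the axis, with genes at 0 in 1 condition, in the end bars. The 4 lower genes lie between -1.94 and -1.70, and the 6 higher genes between 1.69 and 5.04.

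Depth could be read only from the smallest values, and the lowest levels of these genes lay above it. A floor of 3 fragments, set for the shortest annotated transcript of each gene, was passed 23.5-fold by Zeb2 in ESCs, 54.8-fold by Cdh6, 75.9-fold by Snai1 and 96.8-fold by Cdh11. At most 2.51% of the 50-base words in the transcripts of any of the 10 genes also occurred in another gene. The FPKM of all genes summed to 770592 in ESCs and 628679 in NCs, and rescaling to a common sum raised every log2 ratio by 0.29. That rescaling moved the share of higher genes among all calls past 2-fold from 54% to 70.6%. Each of the 10 genes kept its direction and its side of the 2-fold limit under it. A shift of 0.29 could not have changed this, since their smallest log2 ratio in absolute size was 1.69.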

How the data were processed

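RNA-seq libraries of 3 ESC and 3 NC samples had been prepared with the TruSeq RNA kit and sequenced on a HiSeq instrument. The authors aligned reads to mm10 with TopHat2 (version 2.0.8, running Bowtie2 version 2.1.0), assembled and normalized transcripts with Cufflinks 2.0.2, merged them with Cuffmerge and compared conditions with Cuffdiff. The deposited values are FPKM, 1 per gene and condition. The NC column, headed FPK, was taken as FPKM. The authors' fold changes and tests in the same table were not used.

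Of rows that share a gene name (266 repeats), the row with the highest summed FPKM was kept. Genes with at least 1 FPKM in either condition were compared as log2 ratios without a pseudocount, with a limit of 2-fold. Alternatives were pseudocounts of 0.1 and 1, other filters, limits of 1.5-fold and 4-fold, centring on the median of genes at 1 FPKM or more in both conditions, a common sum, and summed rows. Named genes were all 10 genes, every cadherin above the filter, and up to 2 of the largest rises and falls of each list, and others are marked in the text. A result within this rule is not reported here. The 10 genes and the lists were chosen with earlier results of these data known. Positions, lengths and shared words came from GENCODE M21 (GRCm38, the assembly of mm10) and promoter windows from RefSeq. The value of 1 fragment per kilobase was read, after the values were seen, from steps among the lowest FPKM of genes with a single transcript, at a fragment length of 200 bases, as up to 0.0138 FPKM under LIF and 0.0143 FPKM under RA, and covers counting error only. The calculation was tested on simulated data with 4-fold changes planted among genes at 1 FPKM or more in both conditions. That checks the code only and does not cover lower values or the filter on either condition. Python 3.11.15, pandas 2.3.3 and numpy 2.4.6 were used.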

Additional observations from a re-analysis of the deposited data

How the results depend on the processing

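The alternatives that could move a ratio were the pseudocounts of 0.1 and 1, centring and the common sum. Under these the 10 genes kept their direction, and 39 of 40 log2 ratios stayed past the 2-fold limit. Most of this was fixed in advance. A pseudocount cannot turn a direction. Centring and the common sum moved every log2 ratio by at most 0.29, while the smallest in absolute size was 1.69 (Zeb1). Only the pseudocounts could have brought a gene within the limit. Other filters and summed rows left the ratios as they were. The exception to the limit was Cdh11, at 0.96 with a pseudocount of 1. With 1 FPKM required in both conditions, 3 genes were at least 2-fold higher, because Cdh6, Cdh11 and Zeb2 lay under that filter in ESCs and dropped out. With a limit of 4-fold in place of 2-fold, the number of lower genes was 0. A pseudocount of 1 moved the ESC share of Cdh6 among the 5 cadherins from 0.180% to 0.790% and that of Cdh11 from 0.466% to 1.07%. No paired analysis was possible because the table holds 1 pooled value per condition, and for the same reason no replicate could be left out. Depth per sample is unknown.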
